A study of Mus musculus with 4 samples.

Results

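The genes of the mouse mitochondrial genome were examined in 4 RNA-seq libraries of cultured neural stem cells, which divide and give rise to the cells of the brain. Members were all genes whose name begins with mt-, which gave 37 of the 55487 gene IDs in the deposited table. By annotated biotype they were 13 protein-coding genes, 2 rRNA genes and 22 tRNA genes. Each group held 1 library. The control was a Tut1f/f culture that received empty lipid nanoparticles (LNP). Its title in the labels calls it wild type, while its genotype there is Tut1f/f. The Tut1 KO was a Tut1f/f culture that received Cre-LNP, the Trp53 KO was a p53f/f culture with Cre-LNP, and the double KO was a Tut1f/f;p53f/f culture with Cre-LNP. Per the study, the particles carried Cre mRNA, acted for 3 days, and the cells were primary cultures from the neocortex of floxed embryos at mid-gestation. The control therefore carried floxed Tut1 alleles too, and differed from every knockout also in the particle content. No control of p53f/f cells with empty particles, and no wild-type culture without floxed alleles, was among these libraries. The sex of the source embryos was not in the labels.

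Mitochondrial DNA is a small circle that is present in many copies per cell. Both of its strands are transcribed by the polymerase POLRMT into long precursors that run through most of the circle, and the tRNAs that lie between the other genes are cut out at both ends, which releases the mRNAs and rRNAs on either side. The proteins are all subunits of the respiratory chain or of ATP synthase, and the rRNAs and tRNAs serve only the translation of those proteins inside the organelle. Proteins for transcription, cutting, tailing and translation of these RNAs come from nuclear genes.

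Values were transcripts per 1000000 transcripts (TPM), a unit per length. Differences between libraries were taken on the log2(TPM + 1) scale, which understates the change of low genes. Where 4 values are given without names, they stand for the control, the library labelled Tut1 KO, the Trp53 KO and the double KO. A gene entered a comparison with at least 10 TPM in at least 1 of the libraries compared, and a difference of 1 or more in size on that scale was the threshold for counting it. With 1 library per group there was no replicate check within a group. No test was made and no error of a difference is given, so every comparison below is between libraries. TPM keeps no depth, so the sequencing depth is unknown. In bulk RNA, fewer mitochondria or mitochondrial genomes per cell and less RNA per genome cannot be told apart.

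The targeted genes and the sex-linked transcripts were read first. Tut1, the targeted terminal uridylyltransferase, had 12.2, 29.8, 12.5 and 13.7 TPM in the control, the library labelled Tut1 KO, the Trp53 KO and the double KO over the whole gene. Per the study, the knockout removes exon 2 from the Tut1 mRNA, and the deletion was measured on that exon. The table holds no values per exon, so a whole-gene TPM checks neither the deletion nor the label. Trp53 had 120, 100.4, 39.7 and 41.9 TPM in the same order, also over the whole gene. Xist, the RNA of the inactive X chromosome, had 188 TPM in the library labelled Tut1 KO, 204 TPM in the Trp53 KO, and below 1 TPM in the control and the double KO. The Y-linked Ddx3y was listed at 0 in the former pair and at 24.4 and 25.7 TPM in the latter. Sex-linked transcripts and genotype cannot be told apart in any comparison between these pairs of libraries. Of 10 neural stem cell markers 9 had at least 10 TPM in every library, Prom1 being the exception, while all markers of microglia (4), endothelium (3) and mesenchymal cells (4) were under 1 TPM in every library. Markers of astrocytes summed to 82.2 to 93.5 TPM, with Gfap and Aqp4 under 1 TPM, and those of the oligodendrocyte lineage to 42.4 to 55.1 TPM, with Mog under 1 TPM. Aldh1l1 and Pdgfra of these lists had at least 10 TPM in every library. Their part in the mitochondrial values was not tested. Summed neuronal markers had 238, 164, 211 and 217 TPM in the control, the library labelled Tut1 KO, the Trp53 KO and the double KO. The neural stem cell markers summed to 12591, 11302, 10699 and 12394 TPM. Both sums were highest in the control, and their part in the mitochondrial values was not tested either.

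The sequences of 4 tRNA genes are shown first, because the results below turn on them. They are given 5′ to 3′ from the GENCODE M21 transcripts (GRCm38), all on the plus strand of the mitochondrial genome, with the anticodon in capitals. The first pair, mt-Tg for glycine and mt-Tr for arginine, differed most between libraries. The next, mt-Tl1 for leucine, was the highest tRNA gene of the control. The last, mt-Ts2 for serine, was the lowest of all 37 genes and is also the shortest. It is known to lack the D arm of other tRNAs, and its anticodon begins at base 20 instead of base 31 as in mt-Tg.
mt-Tg, chrM:9391-9458: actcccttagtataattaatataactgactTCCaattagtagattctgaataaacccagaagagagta
mt-Tr, chrM:9808-9875: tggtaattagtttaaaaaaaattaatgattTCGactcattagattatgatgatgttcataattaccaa
mt-Tl1, chrM:2676-2750: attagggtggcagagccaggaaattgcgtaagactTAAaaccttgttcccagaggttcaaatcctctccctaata
mt-Ts2, chrM:11613-11671: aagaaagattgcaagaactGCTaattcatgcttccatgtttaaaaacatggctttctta

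The mitochondrial genes together gave 9.61%, 8.16%, 8.25% and 8.47% of all TPM in the control, the library labelled Tut1 KO, the Trp53 KO and the double KO. The control was the highest, and the 3 Cre-treated libraries lay close to each other. Protein-coding genes made up nearly all of this, with 9.04% of all TPM in the control and 7.68%, 7.76% and 8.03% in the other libraries in the same order. The 22 tRNA genes gave 0.415%, 0.352%, 0.352% and 0.307%, with the lowest share in the double KO. The 2 rRNA genes gave 0.153%, 0.128%, 0.135% and 0.135%. Mitochondrial rRNA is the most abundant mitochondrial RNA in cells, but the labels name a kit that selects poly(A) RNA, and these shares describe the libraries and not the RNA content of the cells.

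**Figure D1:**
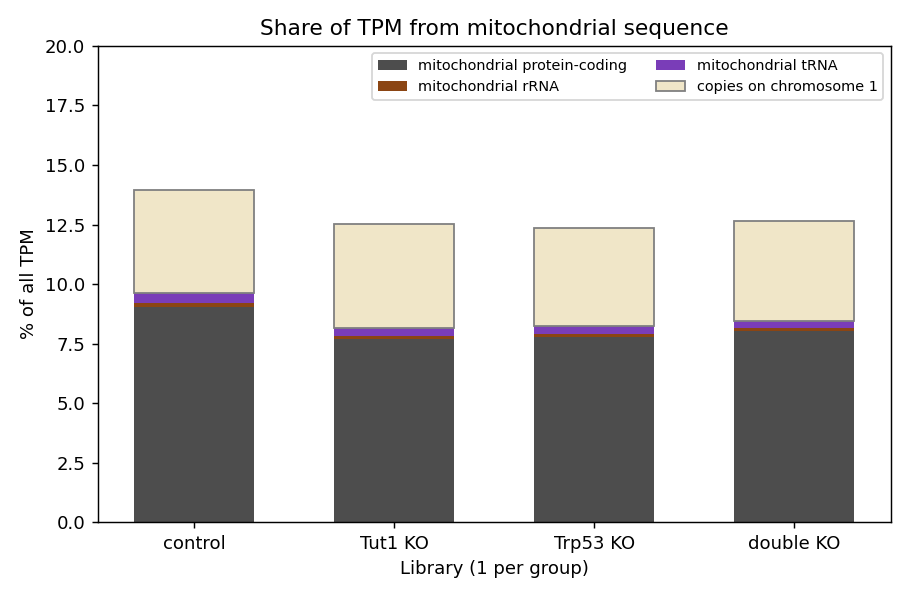
Share of all TPM, in percent, from mitochondrial protein-coding, rRNA and tRNA genes and from their copies on chromosome 1, stacked for each of the 4 libraries. The control reaches 9.61% without the copies, above the 8.16% to 8.47% of the Cre-treated libraries.

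**Figure D2:**
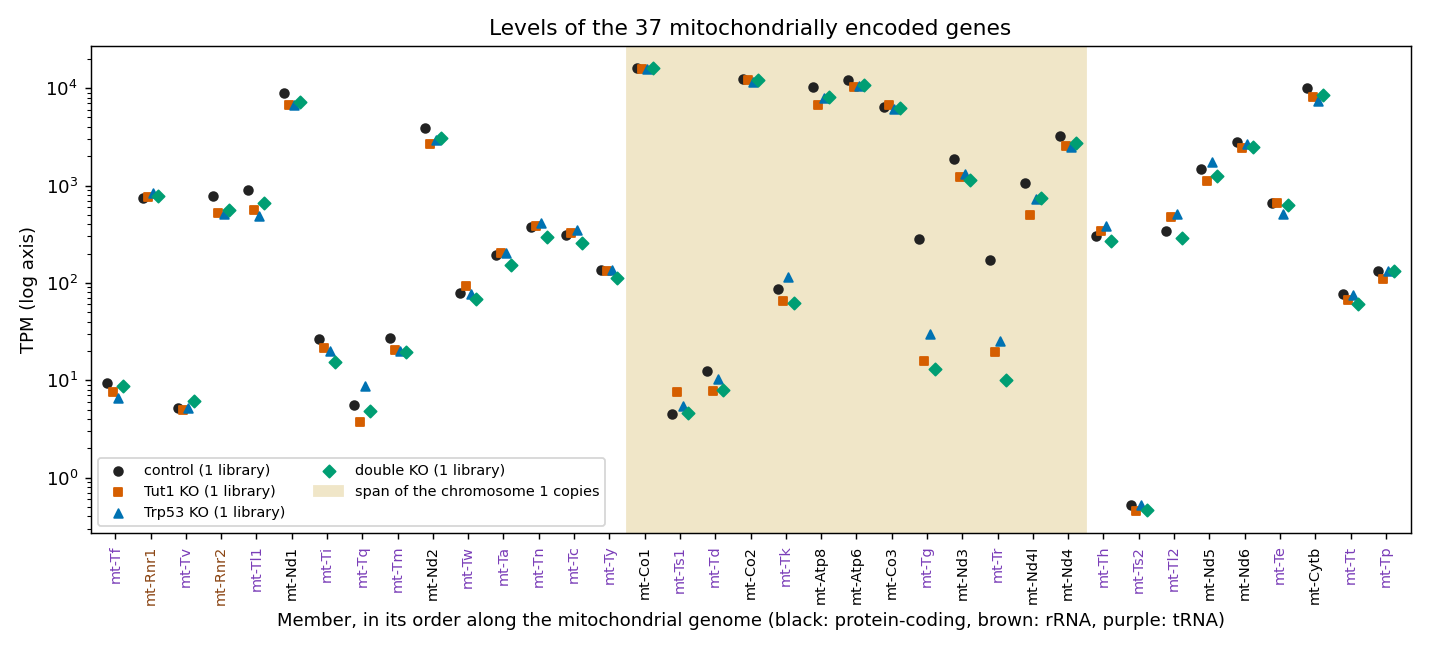
TPM of each of the 37 mitochondrial genes on a log axis, in genome order, where each point is 1 library and the shading marks the span of the chromosome 1 copies described below. mt-Co1 is at the top in every library, mt-Ts2 is at the bottom, and the points of mt-Tg and mt-Tr are the most spread.

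Levels of the protein-coding genes are given by complex, beginning with complex IV, cytochrome c oxidase, which passes electrons to oxygen. mt-Co1 (ENSMUSG00000064351, chrM:5328-6872), its catalytic core subunit, had 16075, 15700.5, 15544 and 16045 TPM in the control, the library labelled Tut1 KO, the Trp53 KO and the double KO, and ranked first of all genes in every library. mt-Co2, which takes up electrons from cytochrome c, had 12439, 12226, 11500.0 and 12129 TPM in the same order. mt-Co3, the third core subunit, had 6379.6, 6674, 6149.8 and 6212 TPM. These were the most even of the mitochondrial genes: the highest library was 1.03-fold, 1.08-fold and 1.09-fold the lowest for mt-Co1, mt-Co2 and mt-Co3, where the median over 9314 genes was 1.31-fold. The complex held 38.6% of the mitochondrial protein-coding TPM in the control and 45.1%, 42.8% and 42.8% in the library labelled Tut1 KO, the Trp53 KO and the double KO. These shares use the listed values. In the control mt-Co2 and mt-Co3 each held 50.1% of the sum with a chromosome 1 copy described below. Genes such as mt-Nd1 and mt-Cytb have no such copy, so the shares would change with the copies added.

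Both mitochondrial subunits of ATP synthase, complex V, are read from 1 bicistronic mRNA and their genes overlap. The 43 bases that belong to both (chrM:7927-7969, plus strand, GENCODE M21) are shown because reads from them cannot be given to one gene alone.
mt-Atp8/mt-Atp6 overlap: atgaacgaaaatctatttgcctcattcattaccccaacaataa
mt-Atp6, part of the proton channel, had 12088, 10224, 10634 and 10756 TPM in the control, the library labelled Tut1 KO, the Trp53 KO and the double KO. mt-Atp8, a small membrane subunit whose gene is 204 bases long, had 10239, 6638, 7838 and 8017 TPM. The control was the highest for both, and the gap was wider for mt-Atp8, so its ratio to mt-Atp6 was 0.847 in the control and 0.649, 0.737 and 0.745 in the others. The listed values of these genes of 1 mRNA were thus unequal to a differing degree among libraries, in a pair that shares bases. mt-Atp6 held only 48.1% to 48.7% of the sum with a chromosome 1 copy described below, while mt-Atp8 has no annotated copy. The part of read assignment in the ratio was not tested. Cytochrome b, mt-Cytb, the sole mitochondrial subunit of complex III, had 10021, 8148, 7334 and 8416 TPM.

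Complex I, NADH dehydrogenase, has 7 mitochondrial subunits, which form its membrane arm, and they held 25.6% of the mitochondrial protein-coding TPM in the control and 22.4%, 23.98% and 23.3% in the library labelled Tut1 KO, the Trp53 KO and the double KO. These shares leave out the chromosome 1 copies too, which cover mt-Nd3, mt-Nd4l and part of mt-Nd4. mt-Nd1, the first protein-coding gene after the rRNAs, was the highest of the 7 with 8856, 6714, 6772 and 7193 TPM. mt-Nd2 had 3916, 2685, 2909 and 3088 TPM, and mt-Nd4 had 3209.8, 2556, 2461 and 2745 TPM. In these genes the control lay above the 3 Cre-treated libraries. mt-Nd6, the only protein-coding gene on the minus strand, differed less, with 2785, 2404, 2672 and 2515 TPM. mt-Nd5 (chrM:11742-13565) was the only protein-coding gene with its highest value in the Trp53 KO, at 1745 TPM, against 1488, 1103 and 1246 TPM in the control, the library labelled Tut1 KO and the double KO. It overlaps mt-Nd6 on the other strand by 14 bases, and the sources used here do not say whether reads were counted by strand. mt-Nd3 had 1888, 1218, 1317 and 1144 TPM. mt-Nd4l, the smallest subunit, had 1051, 500.4, 731 and 747 TPM, the lowest of the protein-coding genes in every library.

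The order of the protein-coding genes was alike in the libraries at its ends and moved in the middle. mt-Co1, mt-Co2 and mt-Atp6 were the top 3 in each library, at ranks 1, 3 and 5 of all genes in the control. mt-Atp8 was at rank 7 of all genes in the control and at ranks 15, 11 and 12 in the library labelled Tut1 KO, the Trp53 KO and the double KO. Whether neighbours in this order differ beyond the spread of replicates could not be asked with 1 library per group.

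The rRNA genes went apart from each other. mt-Rnr1, the RNA of the small ribosomal subunit (chrM:70-1024), had 743, 757, 839 and 789 TPM in the control, the library labelled Tut1 KO, the Trp53 KO and the double KO. mt-Rnr2, that of the large subunit (chrM:1094-2675), had 782, 525, 509 and 558 TPM, with the control above all Cre-treated libraries. The ratio of mt-Rnr1 to mt-Rnr2 was 0.950 in the control and 1.44, 1.65 and 1.41 in the others. mt-Tl1, which abuts mt-Rnr2 and mt-Nd1 with no base between them, had 906, 561, 482 and 655 TPM, the same order of libraries as in mt-Rnr2. Its ratio to mt-Rnr2 stayed between 0.947 and 1.17.

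tRNA genes covered a wide range. Reads on a tRNA gene can come from the mature tRNA, from an uncut precursor or from the end of a neighbouring mRNA, and a value of TPM does not tell them apart. The genes are 59 to 75 bases long, and the fragment length, on which a TPM value of so short a gene depends, was not given in the sources used here. Of the 22, 17 had at least 10 TPM in some library. The 5 that did not were mt-Tf, mt-Tv, mt-Tq, mt-Ts1 and mt-Ts2, and mt-Ts2 was between 0.456 and 0.526 TPM in all libraries. It lies between mt-Th and mt-Tl2 (chrM:11671-11741), shares its last base with mt-Tl2, and those neighbours had 303.6 and 344 TPM in the control. mt-Td, for aspartate, was close to the minimum, with 12.5, 7.72, 10.2 and 7.99 TPM in the control, the library labelled Tut1 KO, the Trp53 KO and the double KO.

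Among the higher tRNA genes, mt-Te, for glutamate, lies on the minus strand beside mt-Nd6 and had 656.5, 658, 515 and 624.5 TPM in the control, the library labelled Tut1 KO, the Trp53 KO and the double KO. mt-Tn, for asparagine, had 377, 384, 411 and 299 TPM, and its cluster partners on the minus strand mt-Tc, mt-Ta and mt-Ty also had the double KO lowest. Summed, these 4 adjacent genes gave 1014, 1047, 1096 and 821 TPM in the 4 libraries. On the plus strand mt-Tl2, for leucine, had 344, 471, 515 and 290.2 TPM, and mt-Th, for histidine, had 304, 341.5, 384 and 268 TPM. The low value of the double KO recurred: of the 17 tRNA genes with at least 10 TPM in some library, 13 (76.5%) had their lowest value there, where 17.1% of all 9314 such genes did. No test of this share was made, since the genes share their precursors and each library is 1 sample.

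mt-Tg and mt-Tr stood apart from the other 35 genes. mt-Tg (ENSMUSG00000064359), which lies between mt-Co3 and mt-Nd3 with no base between them, had 284, 15.6, 29.9 and 12.9 TPM in the control, the library labelled Tut1 KO, the Trp53 KO and the double KO. mt-Tr (ENSMUSG00000064361), between mt-Nd3 and mt-Nd4l with 1 base on either side, had 172, 19.7, 25.4 and 10.1 TPM. In both genes the control was far above the 3 Cre-treated libraries, by 9.53-fold over the highest of them for mt-Tg and 6.79-fold for mt-Tr. The highest library was 22.001-fold the lowest for mt-Tg and 17.1-fold for mt-Tr, against 1.03-fold to 2.31-fold for the other 35. Their flanking mRNAs did not differ by as much: the ratio of mt-Tg to mt-Co3 was 0.0446 in the control and 0.00234, 0.00485 and 0.00208 in the others. Without mt-Tg and mt-Tr the summed tRNA value was 3692 TPM in the control and 3483, 3468 and 3052 TPM in the Cre-treated libraries.

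The first question the design poses is how the Tut1 knockout label bears on the transcriptome with Trp53 intact and with Trp53 deleted. With Trp53 intact, the library labelled Tut1 KO differed from the control also in particle content, so label and particles cannot be told apart. In the library labelled Tut1 KO against the control, 3 of the 32 members that entered were lower, with differences of -4.10 for mt-Tg, -3.07 for mt-Tr and -1.07 for mt-Nd4l on the log2 scale. mt-Nd4l did not reach the threshold, which left 2, with the median of all genes set to 0, with TPM divided by the mitochondrial protein-coding TPM, or with its copy added. No member was higher. Over the 9032 genes that entered, 2.61% were lower and 1.48% higher by this measure. The median difference of the 13 protein-coding genes was -0.33, with 12 of the 13 below 0 and mt-Co3 above it at 0.06, beside a median of -0.09 over all genes. The 7 complex I genes had a median of -0.43 and the 3 complex IV genes of -0.02, and mt-Nd2, mt-Nd3 and mt-Atp8 differed by -0.54, -0.63 and -0.63. The 17 tRNA genes that entered had a median of -0.21, with 10 of them below 0. It was -0.11 with a minimum of 10 TPM in both libraries and -0.12 with the median of all genes set to 0. mt-Tl2 was the highest, at 0.45. mt-Rnr2 differed by -0.57 and mt-Rnr1 by 0.03.

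With Trp53 deleted in both libraries, the double KO against the Trp53 KO, the median of the protein-coding genes was 0.03, with 3 of the 13 below 0, beside 0.05 over all genes, and it is below 0 once the median of all genes is set to 0. mt-Nd5 was the lowest of them at -0.48. mt-Nd4l differed by 0.03 and mt-Atp8 by 0.03, where the library labelled Tut1 KO had -1.07 and -0.63 against the control. The tRNA genes had a median of -0.37, with 14 of the 17 below 0. mt-Tr at -1.25 and mt-Tg at -1.15 were past the threshold, mt-Tk at -0.89 and mt-Tl2 at -0.82 were not, and mt-Tl1 was higher by 0.44. So 2 of 32 members were lower and none higher, beside 1.79% lower and 1.41% higher of the 8976 genes that entered. With a pseudocount of 5 in place of 1, 1 member was lower. These comparisons share no library, but whether their differences are unlike beyond the spread of replicates was not tested.

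The second question is the Trp53 label. In the Trp53 KO against the control, 2 of 32 members were lower, mt-Tg with -3.21 and mt-Tr with -2.72, and none was higher, beside 1.91% lower and 1.92% higher of 9055 genes. The protein-coding median was -0.38, with 12 of the 13 below 0 and mt-Nd5 above it at 0.23, beside -0.05 over all genes. It was -0.22 under quantile normalization and -0.22 with the chromosome 1 copies added. mt-Cytb differed by -0.45, mt-Nd4l by -0.52 and mt-Nd3 by -0.52, or -0.22 with its copy on chromosome 1 added. The tRNA median was -0.02, with 9 of the 17 below 0, and is above 0 under quantile normalization or with the median of all genes set to 0. mt-Tl1 differed by -0.91, and mt-Tl2 and mt-Tk were higher by 0.58 and 0.41. This comparison shares its control with the previous comparison against the control, so a low or high value of that library moves both. Particle content differed in both too, and mt-Tg and mt-Tr were past the threshold in both. The labels and the particles therefore cannot be told apart here.

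The double KO against the library labelled Tut1 KO had no member past the threshold in either direction, beside 1.77% lower and 2.13% higher of 8950 genes. The protein-coding median was 0.07, with 3 of the 13 below 0 and mt-Nd4l the highest at 0.58, beside 0.09 over all genes, and it too is below 0 once the median of all genes is set to 0. The tRNA median was -0.30, or -0.18 without a minimum, with 14 of the 16 that entered below 0, the lowest being mt-Tr at -0.90 and mt-Tl2 at -0.70. In the double KO against the control, mt-Tg differed by -4.36 and mt-Tr by -3.97, and no other member was past the threshold, beside 1.85% lower and 1.46% higher of 9022 genes. All 13 protein-coding genes were below 0, with a median of -0.25 beside -0.00 over all genes. mt-Nd3 was the lowest of them at -0.72, and mt-Co1 was at -0.00. Of the tRNA genes 16 of the 17 were below 0, with a median of -0.33.

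**Figure D3:**
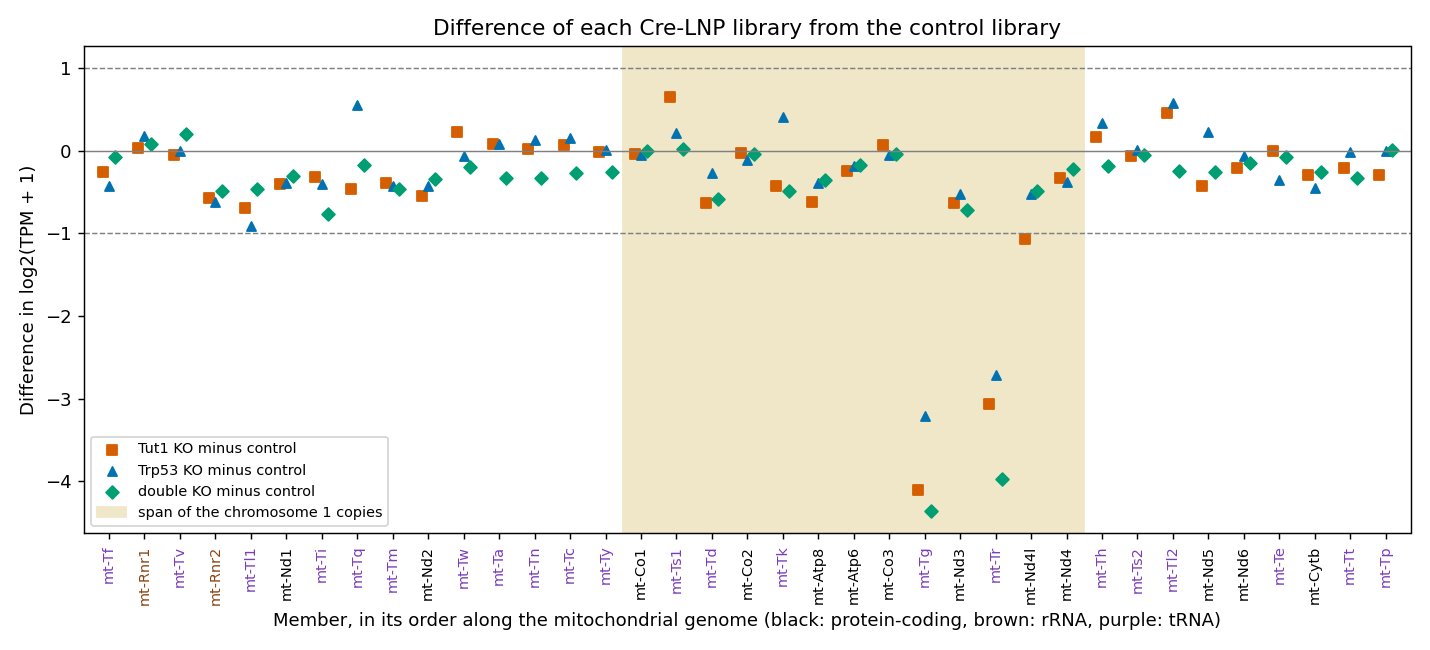
Difference of each Cre-treated library from the control on the log2(TPM + 1) scale for the 37 genes in genome order, where each point is 1 gene in 1 library, dashed lines mark -1 and 1, and genes under the 10 TPM minimum are drawn too. Shading marks the span of the chromosome 1 copies, in which mt-Co1 and mt-Nd4 are shaded whole though only 483 and 876 of their bases lie in it. mt-Tg and mt-Tr lie between -4.36 and -2.72, while mt-Co1, mt-Co2 and mt-Co3 lie between -0.11 and 0.06.

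Over all libraries, the control had the highest value in 19 of the 32 members with at least 10 TPM (59.4%), against 29.6% of all 9314 genes. This held for 11 of the 13 protein-coding genes, with mt-Co3 and mt-Nd5 as exceptions, and for 7 of the 17 tRNA genes. The same control library stands in this count and in 3 of the 5 comparisons. At 1.5-fold, a looser threshold, 7 of 32 members were lower in the library labelled Tut1 KO against the control, where 8.1% of all genes were. The count was 4 of 32 in the double KO against the Trp53 KO, beside 4.41%, and 4 of 32 in the Trp53 KO against the control, beside 4.33%. It was 2 of 31 in the double KO against the library labelled Tut1 KO, beside 4.18%, and 4 of 32 in the double KO against the control, beside 4.38%.

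Strand was compared next, since the minus strand carries only mt-Nd6 and 8 tRNA genes. In the library labelled Tut1 KO against the control, the 11 tRNA genes of the plus strand that entered had a median of -0.38 and the 6 of the minus strand a median of 0.01. In the Trp53 KO against the control the medians were -0.27 and 0.04. In the double KO against the Trp53 KO they were close, at -0.37 and -0.34. In the double KO against the control they were -0.47 and -0.27, and in the double KO against the library labelled Tut1 KO -0.30 and -0.29, over 10 and 6 genes. The plus strand set holds mt-Tg and mt-Tr.

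Base composition was set beside these differences. The members are AT-rich, with 17.1% to 44.9% GC and a median of 35.6%. All 13 protein-coding members lay below 41.4% GC, the limit that 846 of 8456 nuclear protein-coding genes lay below by transcript GC. Those 846 genes had a median of -0.35 in the library labelled Tut1 KO against the control, beside -0.10 over all nuclear protein-coding genes and -0.33 over the mitochondrial ones. In the Trp53 KO against the control the low-GC nuclear median was -0.12, beside -0.38 for the mitochondrial protein-coding genes. In the double KO against the control it was 0.03, beside -0.25. In the double KO against the Trp53 KO and against the library labelled Tut1 KO it was 0.15 and 0.37, beside 0.03 and 0.07. The part of base composition in the mitochondrial values was not tested.

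Copies of mitochondrial DNA in the nuclear genome limit what a value of a mitochondrial gene means, because a read from a copied stretch can be given to either place. Transcripts of other genes were aligned to the mitochondrial transcripts, and a gene was kept as a copy at 95% identity or more over at least 100 bases. This gave 11 genes, 7 on chromosome 1, 3 on chromosome 2 and 1 on chromosome 13. The 7 on chromosome 1 are annotated as unprocessed pseudogenes in a row, chr1:24611535-24616197 on the minus strand. They follow the order mt-Co1, mt-Co2, mt-Atp6, mt-Co3, mt-Nd3, mt-Nd4l and mt-Nd4, and 5 of them had no mismatch to the mitochondrial gene and 2 had 1 each. The mt-Co1 copy Gm29216 covers the last 483 aligned bases and differs by A1066T, and the mt-Nd3 copy Gm28438 differs by T3C over 345 bases. In both tokens the mitochondrial base stands first, the position is counted from 1 at the first base of the mitochondrial gene, and the base of the copy stands last. The start of both mt-Nd3 sequences is shown to make plain how little there is to separate them. It is given 5′ to 3′ on the gene's strand with the differing base in capitals.
mt-Nd3, chrM:9459-9488, plus strand: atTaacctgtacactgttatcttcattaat
Gm28438, chr1:24613090-24613119, minus strand: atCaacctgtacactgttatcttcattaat

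The chromosome 1 copies were listed at levels close to those of the mitochondrial genes where they had no mismatch and ended at most 3 bases short of the gene. Gm28661, the mt-Co2 copy, had 12398, 12344, 11469 and 12167 TPM in the control, the library labelled Tut1 KO, the Trp53 KO and the double KO, and the mitochondrial gene held 49.8% to 50.1% of the sum of the pair. Gm28437, the mt-Co3 copy, had 6349, 6768, 6194 and 6225 TPM, with 49.6% to 50.1% on the mitochondrial gene. For mt-Atp6 and its copy Gm10925 the share was 48.1% to 48.7%, and for mt-Nd4l and Gm10222 it was 47.8% to 50.2%. How reads that match both places were assigned was not given in the sources used here, and its part in these shares was not tested.

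For the copies with a mismatch, and for the partial ones, the shares were less even. mt-Nd3 held 53.6% of the sum with Gm28438 in the control and 44.8%, 43.4% and 46.4% in the library labelled Tut1 KO, the Trp53 KO and the double KO. mt-Co1 held 67.2%, 59.9%, 63.6% and 65.1% with Gm29216, and mt-Nd4 held 68.6%, 74.4%, 70.9% and 70.2% with Gm28439, which matches its first 876 bases. Gm28438 had 1638, 1499, 1717 and 1322 TPM, Gm29216 had 7847, 10519, 8881 and 8603 TPM, and Gm28439 had 1471, 880.2, 1010.3 and 1163 TPM. The copy Gm13341 on chromosome 2, with 95.906% identity to mt-Co2, had 17.3 to 20.9 TPM. The 3 other copies were under 10 TPM in every library.

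**Figure D4:**
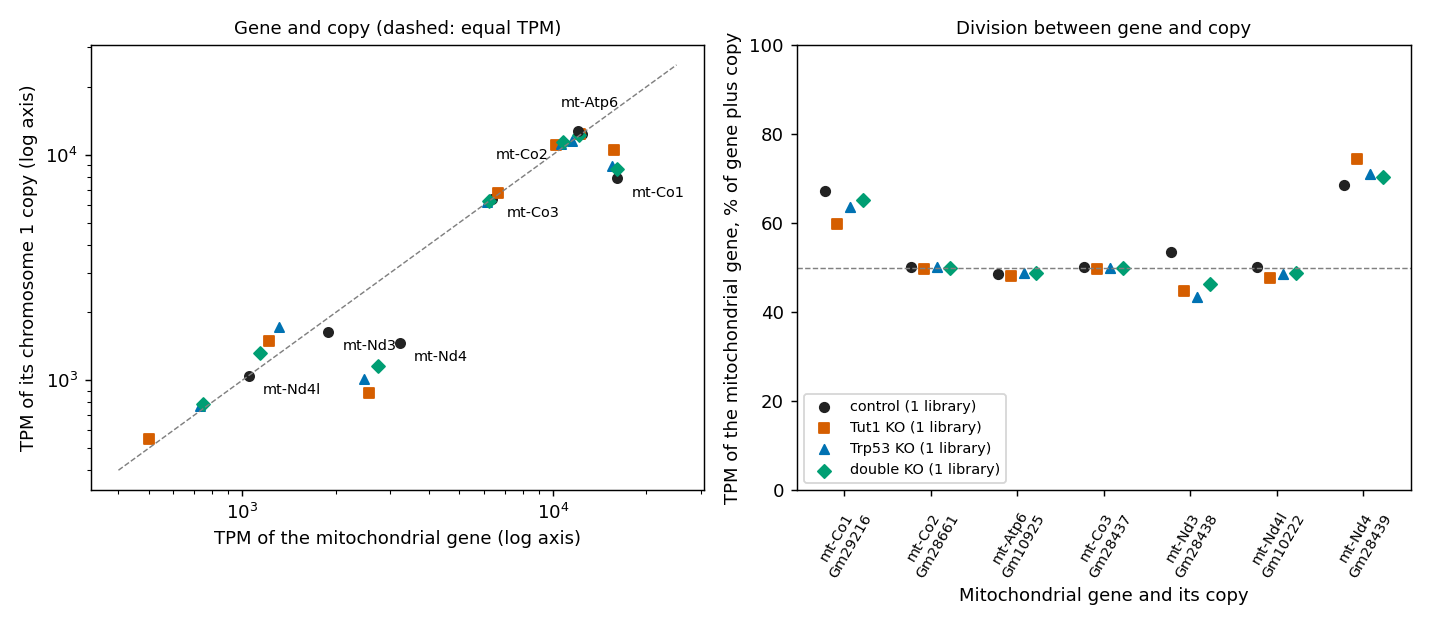
Left, TPM of 7 mitochondrial genes against TPM of their chromosome 1 copies on log axes, with a dashed line at equal TPM; right, TPM of the mitochondrial gene as percent of gene plus copy, with a dashed line at 50%. Each point is 1 library; mt-Co2, mt-Co3 and mt-Atp6 stay between 48.1% and 50.1%, while mt-Nd4 is at 68.6% to 74.4%.

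With the copies added, weighted by length, the levels changed more than the differences did. mt-Atp6 with its copy reached 24808 TPM in the control and mt-Co2 24783 TPM, ahead of mt-Co1 with 18529 TPM and mt-Co3 with 12721 TPM, so the first rank of mt-Co1 held only for the listed values. mt-Nd4l with its copy differed by -0.9987 in the library labelled Tut1 KO against the control, just short of the threshold, and the copy alone differed by -0.93. mt-Nd3 with its copy differed by -0.38 in that comparison in place of -0.63, and Gm28438 alone by -0.13. In the Trp53 KO against the control mt-Nd3 differed by -0.22 with the copy in place of -0.52, and Gm28438 alone by 0.07. In the double KO against the control mt-Nd3 differed by -0.52 with the copy and -0.72 without it.

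The span of the mitochondrial genome between the outer ends of the chromosome 1 copies (chrM:6390-11042, 4653 bases) holds 13 members, and all 3 members that were past the threshold in some comparison, mt-Tg, mt-Tr and mt-Nd4l, lie in it. It holds 7 members with an annotated copy, and 6 without one: mt-Ts1, mt-Td, mt-Tk, mt-Atp8, mt-Tg and mt-Tr. Between the mt-Co3 and mt-Nd3 copies lie 69 bases on chromosome 1 and 69 in the mitochondrial genome, the stretch that holds mt-Tg. Between the mt-Nd3 and mt-Nd4l copies lie 74 and 73 bases, the stretch that holds mt-Tr. The chromosome 1 sequence between the copies was not analysed here, so whether it holds unannotated copies of mt-Tg and mt-Tr, to which reads could be given, and whether that differed between libraries, was not tested. Of the other 24 members 20 entered each comparison and none was past the threshold, beside a share of all genes of 1.41% to 2.13% higher and 1.77% to 2.61% lower, so that few or none would be past it at the general share.

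Nuclear genes for the transcription and processing of mitochondrial RNA, with some for the replication of mitochondrial DNA such as Polg and Twnk and some regulators of nuclear genes such as Nrf1 and Gabpa, were read as a list of 47, of which 36 entered in the library labelled Tut1 KO against the control. Their median difference was -0.05, beside -0.09 over all genes, with 1 of the 36 lower and none higher, beside 2.61% lower and 1.48% higher of all genes. The one was Trnt1, the enzyme that adds the CCA end to tRNAs, in mitochondria and in the cytosol. It had 49.6, 17.1, 19.7 and 26.3 TPM in the control, the library labelled Tut1 KO, the Trp53 KO and the double KO, and differed from the control by -1.48, -1.29 and -0.89. The control was the highest of the 4 libraries. Gabpb1, a subunit of a transcription factor of nuclear genes for mitochondrial proteins, had 18.98, 25.8, 11.9 and 32.3 TPM, and was higher by 1.36 in the double KO against the Trp53 KO. In that comparison it was the 1 gene of 36 past the threshold, beside 1.41% higher and 1.79% lower of all genes, and the list had a median of 0.15, beside 0.05 over all genes. In the Trp53 KO against the control Trnt1 was the 1 gene of 35, beside 1.91% lower of all genes, with a list median of -0.07 beside -0.05. The list had no gene past the threshold in the double KO against the library labelled Tut1 KO or against the control, with medians of 0.11 and 0.07, beside 0.09 and -0.00 over all genes. Of all genes 2.13% were higher and 1.77% lower in the former, and 1.46% and 1.85% in the latter.

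The core machinery differed less. Polrmt, the mitochondrial RNA polymerase, had 12.1, 15.2, 12.7 and 12.1 TPM in the control, the library labelled Tut1 KO, the Trp53 KO and the double KO. Tfam, which packs mitochondrial DNA and starts transcription, had 25.9, 23.5, 24.7 and 29.2 TPM, and its partner Tfb2m had 11.998, 9.09, 11.6 and 12.006 TPM. None of these was past the threshold in any comparison. Of the subunits of RNase P, the complex that cuts tRNAs at the 5′ end, Trmt10c had 16.6, 16.0, 14.8 and 21.7 TPM and Hsd17b10 had 100.6, 121, 111 and 120 TPM. Elac2, which cuts at the 3′ end, had 37.7, 32.9, 31.1 and 40.8 TPM. Lrpprc and Slirp form a pair that protects mitochondrial mRNAs. Lrpprc had 32.8, 23.2, 29.9 and 25.2 TPM and differed by -0.48 in the library labelled Tut1 KO against the control, while Slirp had 29.7, 41.6, 28.2 and 32.1 TPM and differed by 0.47. Mtpap, the mitochondrial poly(A) polymerase, had 32.2, 28.9, 27.4 and 32.3 TPM, and Pnpt1, an exonuclease of the organelle, had 27.96, 23.3, 25.3 and 29.95 TPM.

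The 78 nuclear genes for mitochondrial ribosomal proteins all entered. Their median was 0.13 in the library labelled Tut1 KO against the control, beside -0.09 over all genes and -0.33 over the mitochondrial protein-coding genes. It was 0.10 in the double KO against the Trp53 KO, beside 0.05 and 0.03. In the Trp53 KO against the control it was -0.00, beside -0.05 and -0.38, and in the double KO against the control 0.11, beside -0.00 and -0.25. The list lay below both in the double KO against the library labelled Tut1 KO, with -0.07, beside 0.09 over all genes and 0.07 over the mitochondrial protein-coding genes. In the first of these comparisons 2 of the 78 genes were higher and none lower, beside 1.48% higher and 2.61% lower of all genes. They were Mrpl58, higher by 1.18 with 51.8, 119, 49.2 and 98.5 TPM, and Mrpl48, higher by 1.10 with 49.4, 106.8, 71.9 and 63.0 TPM. No gene of the list was past the threshold in the other 4 comparisons, where 1.41% to 2.13% of all genes were higher and 1.77% to 1.91% lower.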

How the data were processed

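Libraries were 4 mouse neural stem cell cultures, 1 per group. The deposited values are TPM per gene, computed by the authors; their processing notes name Trimmomatic, HISAT2, StringTie and mm10, without versions. The labels name an Illumina stranded mRNA kit, while the series' design text speaks of Nanopore long reads. The study names an Ensembl release for its long-read analysis. Pooling, the annotation release behind the TPM and use of strand in counting were not given in the sources used here.

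Members were matched by the mt- prefix, and all 37 IDs were found in GENCODE M21 (GRCm38, the same build as mm10), as were 55141 of all 55487 IDs. Differences used a pseudocount of 1, a minimum of 10 TPM in at least 1 library compared and a threshold of 1 on the log2 scale. No statistical test was made, since each group has 1 library. Nuclear copies were found with blastn 2.17.0. Scripts used Python 3.11.15 with pandas 2.3.3. Only the differences and the threshold were tried on simulated data, with planted changes larger than the threshold. Every member could be named, as could 10 processing factors, list genes past the threshold, the targeted genes, and copies with at least 10 TPM. Members, lists and thresholds were chosen with earlier results of these data known. Alternatives were other pseudocounts, minimums, scalings and thresholds, and the copies added.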

Additional observations from a re-analysis of the deposited data

How the results depend on the processing

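No paired analysis was possible because each group has 1 library, and for the same reason no library could be left out. Of the other values, 237 lay within 0.1 on the log2 scale of a median, within 1.5 times a count or within 0.1 times a share. Among them, mt-Nd4l lost its call in the library labelled Tut1 KO against the control, leaving 2 lower members, with the median of all genes set to 0, with division by the mitochondrial protein-coding TPM, and with the copies added. Medians near 0 changed sign 6 times, with the median of all genes set to 0 or under quantile normalization, and none of these exceeded 0.04 in size. Beyond them, a pseudocount of 5 left 1 lower member in the double KO against the Trp53 KO, and without a minimum the tRNA median of the double KO against the library labelled Tut1 KO was -0.18. The protein-coding median of the Trp53 KO against the control was -0.22 under quantile normalization and -0.22 with the chromosome 1 copies added, an alternative chosen after seeing the data. A 1.5-fold threshold gave 7 lower members in the library labelled Tut1 KO against the control, 4 in the double KO against the Trp53 KO, 4 in the Trp53 KO against the control, 2 in the double KO against the library labelled Tut1 KO and 4 in the double KO against the control, where 8.1%, 4.41%, 4.33%, 4.18% and 4.38% of all genes were lower. With nuclear copies the mitochondrial share of TPM was 14.0% in the control and 12.5%, 12.4% and 12.6% in the library labelled Tut1 KO, the Trp53 KO and the double KO. Among protein-coding genes alone it was 9.03%, 9.13% and 9.35% in the last 3, and 10.6% in the control, which lay within 0.1 times its share. A looser threshold or a changed denominator moves these values by construction; otherwise the cause was not tested. Depth is unknown, so no counting error can be given.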
